A study of Mus musculus with 6 samples.

Results

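The genes described here carry the cyclic AMP signal that holds the mouse oocyte in meiotic arrest: the receptor gene Gpr3, the stimulatory G protein gene Gnas, the adenylyl cyclase genes Adcy3 and Adcy9, the phosphodiesterase gene Pde3a, and the protein kinase A (PKA) genes Prkaca, Prkacb, Prkar1a, Prkar2a and Prkar2b. They were followed through all deposited probe sets that the array annotation assigned to exactly 1 of these symbols, which gave 23 probe sets for 10 genes out of 21646 tested probe sets and 11429 genes. Gpr3 and Adcy3 had 1 probe set each, and the other 8 genes had several.

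Expression was measured on short-oligonucleotide arrays in immature oocytes at the germinal vesicle (GV) stage and in mature oocytes that wait for sperm at the second metaphase (MII), with 3 biological replicates of 300 pooled oocytes per stage and 1 array each. Both stages came from mice 22 to 24 days old, with no strain or genotype stated in the labels, that had received 5 IU of equine chorionic gonadotropin (eCG), which drives follicle growth. GV oocytes were taken from large antral follicles 44 to 46 h after eCG, freed of cumulus cells by pipetting, and held in arrest by 5 µM milrinone in the medium, an inhibitor of the PDE3 enzymes to which the Pde3a product belongs. MII oocytes, with a visible polar body, were taken from the oviducts 14 h after a further 5 IU of human chorionic gonadotropin, and were freed of cumulus cells with hyaluronidase, so that stage, hormone, site of collection and method of denuding cannot be told apart. The labels call their collection medium the same as that of GV oocytes without naming milrinone, so whether MII oocytes also met it is not settled. The same mass of total RNA, 10 ng, was amplified per array, so values are relative to that mass, and fewer cells of a type and less RNA per cell cannot be told apart.

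As background, a fully grown oocyte stays in prophase of meiosis as long as its cyclic AMP is high. Gpr3, a receptor active without an added ligand, works through the Gs protein encoded by Gnas to keep adenylyl cyclase making cyclic AMP in the oocyte itself. Cyclic AMP releases the catalytic subunits of PKA from its regulatory subunits, and active PKA keeps the kinase Cdk1 inhibited. Cyclic GMP that enters from the cumulus cells through gap junctions keeps the phosphodiesterase Pde3a from breaking cyclic AMP down, and when luteinizing hormone lowers cyclic GMP, Pde3a acts and meiosis resumes. Fully grown oocytes make little new RNA, so transcript levels in this interval are known to depend mainly on how stored RNAs are kept or lost.

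Because PKA also phosphorylates CREB, which binds the cyclic AMP response element TGACGTCA, the promoters of the members were searched for that element and for its core TGACG, on both strands, in windows from 250 bases before to 50 bases after each annotated start (RefSeq, GRCm38.p6). Promoters were found for 9 of the 10 genes, all but Pde3a, 22 windows in all. The full element lay in 2 overlapping windows of 1 gene, Prkar1a, against 1.79% of 32851 promoters of the same length. The core, which the full element holds on each strand, lay in 11 of the 22 windows and in 7 genes, against 20.8% of all promoters. These windows are not separate, since those of Gnas and of Prkar1a include overlapping ones. The share of all genes with the core was not computed, so the count of genes has no background here. The 2 stretches shown are those of the receptor gene with which the pathway starts and of the member with the full element, with the core or element in capitals.
Gpr3 promoter, chr4:133212537-133212686, minus strand, the 150 bases before the start: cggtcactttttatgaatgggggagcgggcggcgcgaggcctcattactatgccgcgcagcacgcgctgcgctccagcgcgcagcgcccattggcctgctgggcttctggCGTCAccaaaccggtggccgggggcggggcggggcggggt
Prkar1a promoter, chr11:109650889-109650918, plus strand, 30 bases: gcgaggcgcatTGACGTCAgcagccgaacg
In Gpr3 the core stands on the opposite strand at 2 places, 196 and 40 bases before the start, and only the latter lies in the stretch shown. In Prkar1a the element begins 49 bases before the annotated start of the gene used for the stretch shown. It begins 38 bases after the annotated start on which the other, overlapping window is built. A further core of Prkar1a, 187 bases before the former start, lies outside the stretch. These matches describe letters in the reference and were not tested for binding or activity.

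The values are log2 expression as the authors deposited it, and all differences are MII minus GV on that scale, tested by limma over all 21646 probe sets with Benjamini-Hochberg adjustment and called at an adjusted p under 0.05. Array medians were 6.10 to 6.12 in GV and 5.47 to 5.49 in MII, and the poly-A control RNAs were higher by 0.87 in MII (exact permutation p = 0.1, 2-sided, the smallest that 3 against 3 arrays can give), so each result was also read under 4 other scalings between arrays. The hybridization controls were higher by 0.40 in MII (exact permutation p = 0.3, 2-sided). They were at 9.82, 8.97 and 8.94 in GV and at 9.86, 9.66 and 9.42 in MII arrays. The poly-A controls were dimmer, at 4.71, 4.28 and 4.31 in GV and at 5.14, 5.43 and 5.34 in MII arrays. These means lay below every array median of their stage, so the poly-A scaling rests on dim features. Of 13 oocyte markers all 13 had means above the median of all probe sets; 7 were lower and 1 was higher in MII, with a median difference of -1.01, and their linear sum was 39750 to 42140 in GV and 28230 to 29040 in MII arrays. Granulosa and cumulus markers, of which 6 of 10 were measured, summed on the linear scale to between 392 and 464 in GV and between 233 and 300 in MII arrays, with 3 of 6 lower in MII, none higher (limma; none at an unadjusted p under 0.05 and none without moderation) and a median difference of -0.39. The part of either marker list in the members' differences was not tested. Of 9 cumulus expansion markers 6 were measured and 0 were called by limma (0 at an unadjusted p under 0.05 and 0 without moderation), and none of the 7 blood, vessel and theca markers was measured.

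Member probe sets were called in both directions in the values as deposited, a pattern that did not hold under every scaling described below. On the deposited scale 6 of the 23 member probe sets rose and 4 fell from GV to MII, against 10.9% higher and 34.1% lower among all probe sets, and 13 were not called. Changed probe sets thus made up 10 of 23, close to the 45.0% of all probe sets. With the brightest probe set taken for each gene, Adcy9 and Prkaca rose, Gnas and Prkar1a fell and 6 genes were not called, beside 10.5% of all genes higher and 37.8% lower. The median difference was -0.02 over the 23 probe sets and -0.15 over all probe sets. Of the 23 probe sets, 13 had no overlap between the 3 arrays of each stage, with MII above in 8 and below in 5, against 54.0% of all probe sets, 14.6% above and 39.4% below.

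**Figure D1:**
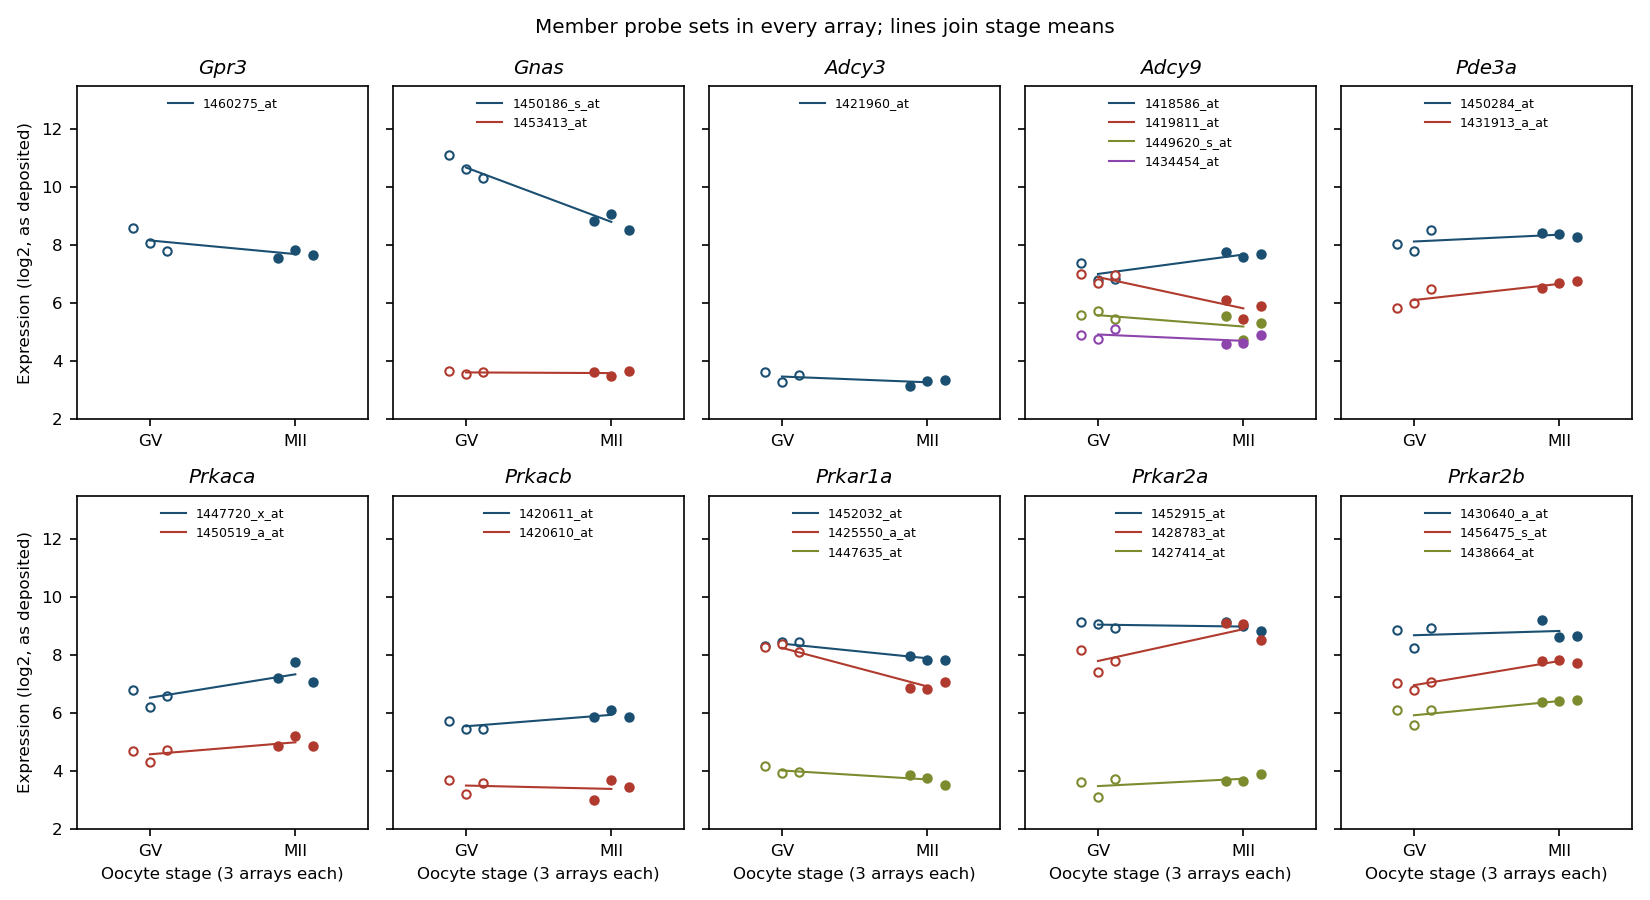
Log2 expression of each member probe set in every array, with GV arrays as open circles, MII arrays as filled circles and lines between the stage means; 1 panel per gene, 1 colour per probe set. The steepest line is that of Gnas 1450186_s_at, from 10.69 to 8.81, and the lines of Adcy9 run both upward and downward.

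The calls depended on how the arrays were scaled to each other. Gnas 1450186_s_at and Prkar1a 1425550_a_at were called lower under all 5 scalings, and 0 member probe sets were called higher under all 5 by limma. With hybridization controls or poly-A controls made equal, 0 member probe sets were higher (0 in each at an unadjusted p under 0.05), whereas 16 were higher with array medians made equal and 12 after quantile normalization. Only 1 probe set, Prkar2a 1428783_at, stayed above 0 throughout, and 3 stayed below 0, while the sign of the other 19 turned with the scaling. Each member rise given below is therefore one on the deposited scale unless another scaling is named. None of them was called with either set of controls made equal. With hybridization controls made equal the SE was 0.37 for every member probe set, against 0.13 to 0.23 as deposited. A call lost there thus does not by itself show that the difference was gone.

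**Figure D2:**
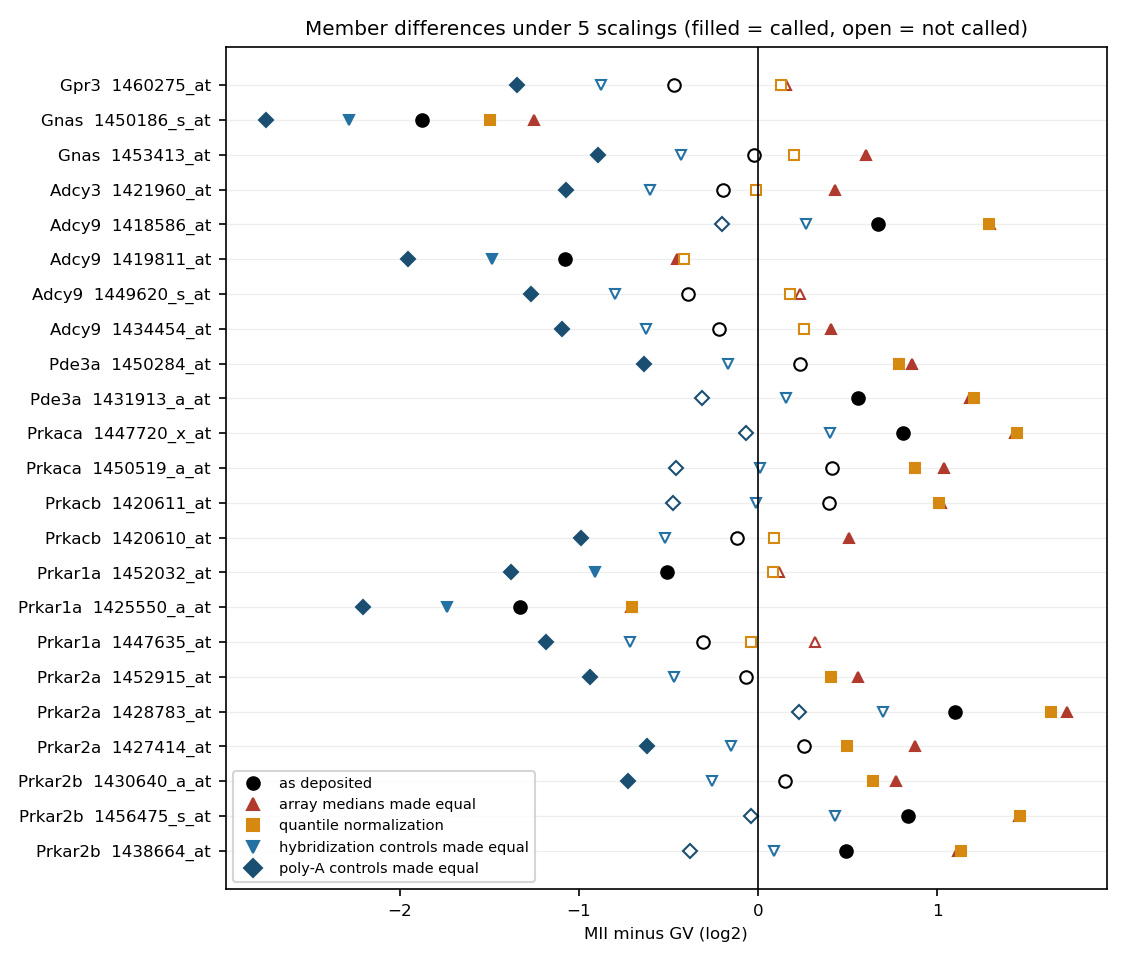
MII minus GV (log2) for each member probe set as deposited and under 4 other scalings between arrays; filled symbols are called by limma, open symbols are not. Only Gnas 1450186_s_at and Prkar1a 1425550_a_at are filled and to the left of 0 under all 5.

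The receptor gene Gpr3 was at 8.61, 8.09 and 7.80 in the 3 GV arrays and at 7.57, 7.84 and 7.68 in the MII arrays. The lowest GV array lay just below the highest MII array, so the stages overlapped, and most of the spread was among GV arrays (SD 0.41, against 0.14 in MII). The difference was -0.47 ± 0.20 (SE, n = 3 per stage), with a 95% interval from -0.92 to -0.02 and an adjusted p of 0.086 (limma, Benjamini-Hochberg), and was not called. Without GV replicate 3 it was -0.65 and called lower, and it was at -0.25 without GV replicate 1. It was 0.15 with array medians made equal and after quantile normalization 0.13, while with poly-A controls made equal it was -1.34 and called lower.

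Gnas, which encodes the alpha subunit of Gs, gave the largest difference of any member. Probe set 1450186_s_at read 11.11, 10.64 and 10.31 in GV and 8.83, 9.08 and 8.52 in MII oocytes, so that every MII array lay more than 1 log2 unit below every GV array. It fell by 1.88 ± 0.22 (SE), or 3.67-fold, with an adjusted p of 5.6e-05 (limma, Benjamini-Hochberg). The fall ranged from -1.25 with array medians made equal to -2.75 with poly-A controls made equal. The other Gnas probe set, 1453413_at, lay below the median of every array at both stages, at 3.62 ± 0.06 in GV and 3.59 ± 0.09 in MII (SD, n = 3). Within each array the gap between the Gnas probe sets narrowed by 1.85 (7.07 ± 0.39 to 5.22 ± 0.36, SD), without overlap. The Gnas locus is imprinted and makes several transcripts from separate promoters, and the annotation does not say which of them either probe set measures. The suffix _s_at marks probes shared by several transcripts.

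The adenylyl cyclase genes, whose products make cyclic AMP from ATP, were measured at very different brightness, which for different probes says nothing of their relative amounts. Adcy3, a cyclase with a known part in rodent oocyte arrest, had 1 dim probe set at 3.61, 3.29 and 3.51 in GV and 3.16, 3.32 and 3.35 in MII. These stages overlapped, the difference was -0.20 ± 0.14 (SE), and the probe set lay below the median of every array. It was called higher with array medians made equal, at 0.43, and with poly-A controls made equal it was called lower, at -1.07.

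Adcy9, a widely expressed membrane cyclase, was the only member with probe sets called in opposite directions, which also held for 513 of the 4739 genes with several probe sets (10.8%). Its brightest probe set, 1418586_at, read 7.40, 6.80 and 6.85 in GV and 7.76, 7.59 and 7.70 in MII, with every MII value above every GV value. It rose by 0.67 ± 0.18 (SE; adjusted p = 0.012 by limma, Benjamini-Hochberg), a call lost without GV replicate 2 (0.56) and with no variance moderation. Probe set 1419811_at moved the other way, from 7.02, 6.71 and 6.99 to 6.12, 5.45 and 5.92, again without overlap. It fell by 1.08 ± 0.19 (SE; adjusted p = 0.00097 by limma, Benjamini-Hochberg), and was at -0.41 and not called after quantile normalization. The remaining Adcy9 probe sets, 1449620_s_at and 1434454_at, were not called, at -0.39 and -0.22, although the former was called lower without MII replicate 1 (-0.57). The within-array gap between 1418586_at and 1419811_at widened from 0.11 ± 0.26 to 1.86 ± 0.26 (SD), a change of 1.75 that no constant shift between arrays can alter. Averaged over its 4 probe sets, Adcy9 differed by -0.26 and was not called, so these arrays give no single direction for the gene.

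**Figure D3:**
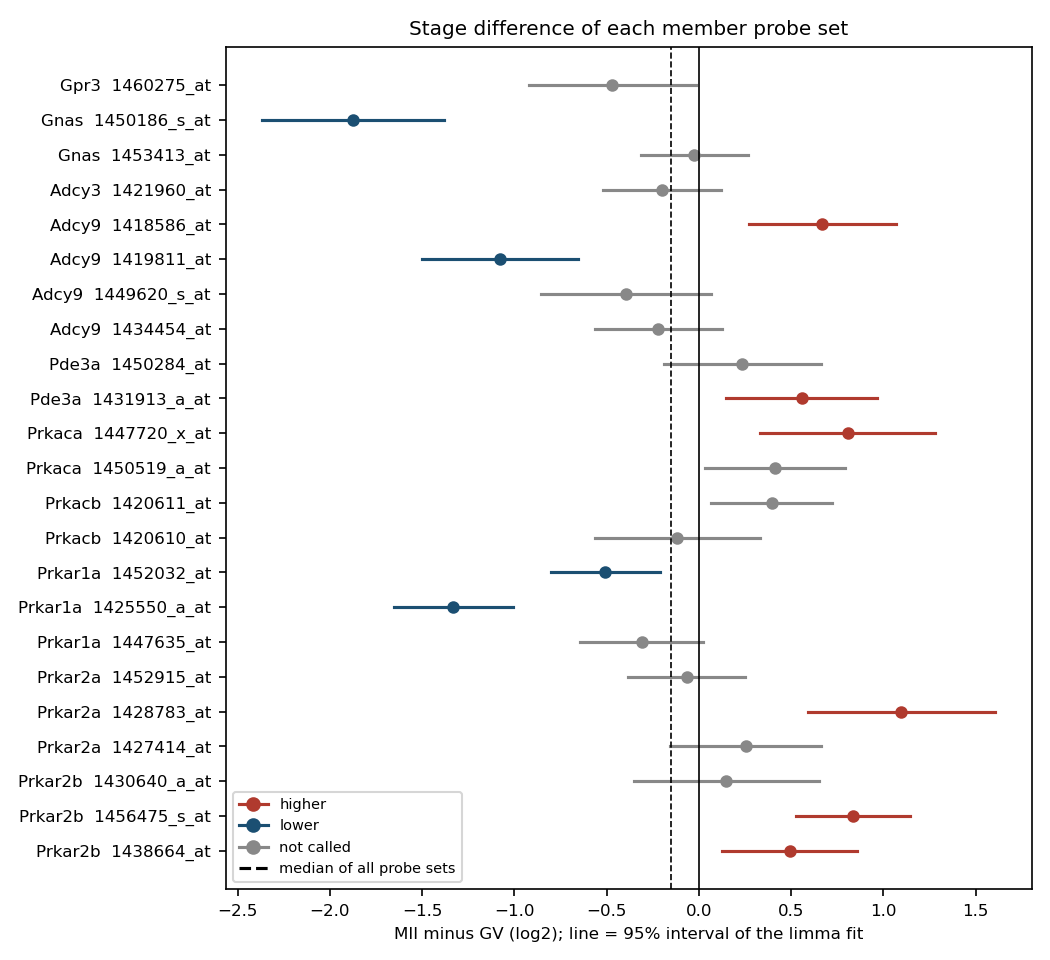
MII minus GV (log2) with its 95% interval from the limma fit for each member probe set, coloured by call; the dashed line is the median of all probe sets, -0.15. The intervals of Adcy9 1418586_at and 1419811_at lie on opposite sides of 0, and that of Gnas 1450186_s_at, from -2.37 to -1.38, reaches farthest to the left.

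Pde3a, whose product breaks cyclic AMP down and so ends the arrest, did not fall in the mature oocyte on the deposited scale. The brighter probe set, 1450284_at, was at 8.06, 7.79 and 8.55 in GV and at 8.43, 8.39 and 8.29 in MII. The MII values lay inside the GV range, and the difference of 0.24 ± 0.19 (SE; 95% interval -0.19 to 0.66) was not called. The dimmer probe set, 1431913_a_at, rose from 5.84, 6.01 and 6.50 to 6.53, 6.72 and 6.77, by 0.56 ± 0.18 (SE; adjusted p = 0.031 by limma, Benjamini-Hochberg), with the stages barely apart. That rise was not called without GV replicate 1 (0.42), GV replicate 2 (0.50), MII replicate 2 (0.53) or MII replicate 3 (0.51), nor with no moderation. Both probe sets were called higher with array medians made equal, at 0.86 and 1.18, and with poly-A controls made equal the brighter was called lower, at -0.64.

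Among the catalytic subunits of PKA, which carry the kinase activity, Prkaca rose on 1 of 2 probe sets. Probe set 1447720_x_at was at 6.79, 6.22 and 6.60 in GV and at 7.20, 7.75 and 7.07 in MII, with all MII values higher. It rose by 0.81 ± 0.21 (SE), 1.75-fold, with an adjusted p of 0.011 (limma, Benjamini-Hochberg), a call lost with no moderation. The suffix _x_at marks probes that resemble other sequences, so other transcripts may add to it. The dimmer Prkaca probe set, 1450519_a_at, also had no overlap between the stages, at 4.69, 4.31 and 4.74 against 4.87, 5.23 and 4.88, but its difference of 0.41 ± 0.17 (SE; adjusted p = 0.072 by limma, Benjamini-Hochberg) was not called. Prkacb, the paralogue, missed the threshold narrowly on 1420611_at, where GV values of 5.72, 5.47 and 5.46 stood below MII values of 5.86, 6.11 and 5.86. Its difference was 0.39 ± 0.15 (SE; adjusted p = 0.0503 by limma, Benjamini-Hochberg), and without GV replicate 1 it was 0.48 and called higher. The other Prkacb probe set, 1420610_at, was dim at both stages and differed by -0.12 ± 0.20 (SE).

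The regulatory subunits bind the catalytic subunits and block them until cyclic AMP arrives; type I is mostly soluble, while type II is held at membranes and organelles by anchoring proteins. The type I gene Prkar1a fell on both of its bright probe sets. Probe set 1425550_a_at went from 8.27, 8.40 and 8.10 to 6.87, 6.82 and 7.07, with tight values at each stage (SD 0.15 and 0.13) and no overlap. It fell by 1.33 ± 0.14 (SE), 2.52-fold, with an adjusted p of 3.2e-05 (limma, Benjamini-Hochberg). Under the other scalings this fall ranged from -0.71 after quantile normalization or with array medians made equal to -2.20 with poly-A controls made equal. Probe set 1452032_at, the brightest, went from 8.30, 8.44 and 8.45 to 7.98, 7.85 and 7.85, also without overlap, and fell by 0.51 ± 0.13 (SE; adjusted p = 0.010 by limma, Benjamini-Hochberg). This was 0.12 with array medians made equal and 0.08 after quantile normalization, called in neither. The within-array gap between these 2 probe sets widened from 0.15 ± 0.18 to 0.97 ± 0.17 (SD), so they gave unequal falls. The third Prkar1a probe set, 1447635_at, was dim and differed by -0.31 ± 0.15 (SE) without being called.

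Of the type II genes, Prkar2a had a bright probe set that hardly moved, 1452915_at, at 9.15, 9.07 and 8.95 in GV and 9.14, 8.99 and 8.84 in MII. Its difference was -0.07 ± 0.14 (SE; 95% interval -0.38 to 0.25), and it was called stable within 1.5-fold by 2 one-sided tests in the same limma fit (adjusted p = 0.032, Benjamini-Hochberg). It was called higher with array medians made equal (0.56) and lower with poly-A controls made equal (-0.94). Another bright probe set of Prkar2a, 1428783_at, rose from 8.20, 7.42 and 7.79 to 9.12, 9.06 and 8.51, with no overlap. That rise of 1.10 ± 0.23 (SE; 2.14-fold; adjusted p = 0.0028 by limma, Benjamini-Hochberg) was the largest of any member, and it was not called with no moderation. The array annotation gives both probe sets the same source accession, yet the gap between them narrowed within the arrays from 1.26 ± 0.36 to 0.09 ± 0.21 (SD). The dim probe set 1427414_at differed by 0.25 ± 0.18 (SE).

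Prkar2b, the other type II gene, rose on 2 of its 3 probe sets. Probe set 1456475_s_at went from 7.03, 6.79 and 7.08 to 7.81, 7.85 and 7.74, a narrow MII cluster (SD 0.05) clear of all GV values. It rose by 0.83 ± 0.14 (SE; adjusted p = 0.00067 by limma, Benjamini-Hochberg), and was the only member rise still called with no moderation. Probe set 1438664_at, which the annotation lists under the same source accession, rose by 0.49 ± 0.16 (SE; adjusted p = 0.034 by limma, Benjamini-Hochberg) from 6.09, 5.59 and 6.09 to 6.39, 6.41 and 6.47. That call was lost without GV replicate 2 (0.33), MII replicate 1 (0.51), MII replicate 2 (0.50) or MII replicate 3 (0.47). The brightest probe set, 1430640_a_at, overlapped between the stages, at 8.88, 8.25 and 8.94 against 9.22, 8.62 and 8.67, and its difference of 0.15 ± 0.22 (SE) was not called. It too was called higher with array medians made equal (0.77) and lower with poly-A controls made equal (-0.73). With all probe sets of a gene averaged and all genes fitted again, Gnas (-0.95) and Prkar1a (-0.72) were lower, and Prkaca (0.61), Prkar2b (0.49) and Prkar2a (0.43) were higher in MII, while Gpr3, Adcy3, Adcy9, Pde3a and Prkacb were not called.

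Stability was rarer than a missing call. Of the 23 member probe sets 3 were called stable within 1.5-fold, against 26.2% of all probe sets, and all 3 were among the 13 not called as changed: Prkar2a 1452915_at and the dim probe sets of Gnas (1453413_at) and Adcy3. None of the 3 calls of stability held in limma fits that left out any 1 array, where 5 to 7 member probe sets passed at an unadjusted p under 0.05. Within bounds of 2-fold, 16 of the 23 were called stable, against 64.3% of all probe sets, among them Gpr3 (adjusted p = 0.022, limma, Benjamini-Hochberg) and both probe sets of Pde3a (0.0029 and 0.030).

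Differences between members within the same array do not depend on any constant shift between arrays, and 7 such pairs were compared on the brightest probe sets. Prkaca gained on Prkar1a most: their log2 difference was -1.51, -2.23 and -1.86 in GV and -0.78, -0.09 and -0.78 in MII, a change of 1.31 without overlap. Prkar2a gained on Prkar1a by 0.44, from 0.85, 0.63 and 0.49 to 1.15, 1.14 and 0.99, again without overlap. Adcy9 1418586_at gained 0.87 on Adcy3 and Prkacb lost 0.41 on Prkaca, with stages apart in both. Each of these 4 changes had an exact permutation p of 0.1 (2-sided), the smallest that 3 against 3 arrays can give, and 0.175 after Benjamini-Hochberg adjustment over the 7 pairs. The change between the enzyme that removes cyclic AMP and the receptor that maintains it, Pde3a minus Gpr3, was 0.71 (exact permutation p = 0.3, adjusted 0.35). GV replicate 3, at 0.74, lay among the MII arrays (0.86, 0.55 and 0.60), while the other GV arrays were at -0.55 and -0.30. Adcy3 against Pde3a (-0.43, exact permutation p = 0.2) and Prkar2b against Prkar2a (0.21, exact permutation p = 0.6) overlapped between the stages. After quantile normalization all 7 changes kept their sign.

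**Figure D4:**
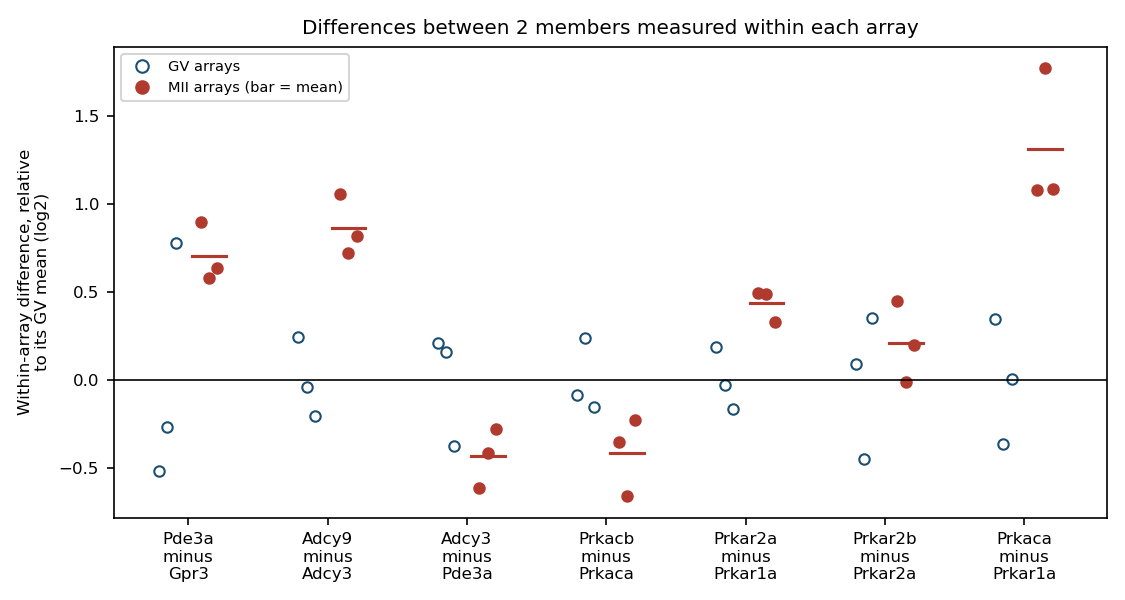
Log2 difference between 2 members within each array, set relative to its GV mean, for GV arrays (open circles) and MII arrays (filled circles, with a bar at their mean). MII arrays lie apart from GV arrays for Adcy9 minus Adcy3, Prkacb minus Prkaca, Prkar2a minus Prkar1a and Prkaca minus Prkar1a, and overlap them for the other 3 pairs.

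Around the members, 91 of 119 listed genes of the wider pathway were measured, of which 34 fell and 8 rose as deposited, beside the 37.8% and 10.5% of all genes given above. The falls numbered 23 and the rises 49 with array medians made equal, and with poly-A controls made equal 79 fell and none rose (limma, 0 rises at an unadjusted p under 0.05). Among receptors and their regulators 3 of 6 fell and 2 rose. Grk5 was among the rises, but its other probe set was called lower. Gpr12, a receptor closely related to Gpr3, rose by 0.73 ± 0.14 (SE) on its brighter probe set and fell by 0.56 on the other. Rgs2, which shortens G protein signals, fell by 1.55 ± 0.15 (SE) from 12.44 on its brightest probe set, with another probe set higher by 0.85. The second brightest of Rgs2, 1419248_at, hardly moved, from 11.59 to 11.51, and a dim one differed by 0.22, neither of them called. Among 17 other G protein subunits 6 fell and 2 rose on the brightest probe set. The inhibitory alpha subunit gene Gnaz was at -2.19 (another probe set at 1.33 and called higher) and Gna12 at 0.91. Further probe sets were called higher for Gnai1, Gnai2, Gnaq, Gna12, Gnb1 and Gna13, the last counted among the falls. Others were called lower for Gnaq, Gna13 and Gng12.

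On the brightest probe set of each gene, none of 5 other cyclase genes, nor the cyclase-associated actin-binding protein gene Cap1, was called by limma (1 of the 6 lower at an unadjusted p under 0.05, and 1 lower without moderation). The brightest was Adcy5 at -0.35 ± 0.14 (SE; limma adjusted p = 0.058, Benjamini-Hochberg), of which another probe set, 1447696_x_at, was called lower at -0.61. A dim further probe set of Cap1 was also called lower, at -0.48. Of 15 other phosphodiesterase genes 6 fell and none rose, with the cyclic AMP-specific Pde7b at -1.64 on a dim probe set. Among 16 further PKA subunits, PKA inhibitors and anchoring proteins 6 fell on the brightest probe set and none was called higher (limma; 2 higher at an unadjusted p under 0.05). The steepest fall was that of the nuclear anchoring protein gene Akap8 at -2.49 ± 0.14 (SE). Further probe sets were called higher for Prkx, Akap9 and Akap10, and lower for Pkig, Akap8, Akap9 and Akap13. Of 8 other effectors and CREB factors only Rapgef3, a cyclic AMP-activated exchange factor for Rap, was called on its brightest probe set, where it fell by 0.55 and was at 0.07 with array medians made equal. Its 3 other probe sets were all called lower: by most in 1424470_a_at (-4.56, from 7.23 to 2.67), then in 1437012_x_at (-3.11) and in 1424471_at (-0.82). Among genes of cyclic GMP and gap junction supply 3 of 8 fell, namely Prkg1, Gja1 and Gja4, and 1 rose. Gucy1a1 (0.27), Gucy1b1 (-0.24) and Impdh1 (-0.30) were not called. Gja1, the connexin of cumulus and granulosa cells, fell by 3.74 from 5.97, beside the lower granulosa markers given above, whose part was not tested. Gja4, another connexin gene, was much brighter and fell by 3.46, from 11.29 to 7.83. Abcc4, an exporter of cyclic nucleotides, rose by 0.63. Of 15 genes of the Cdk1 switch on which PKA acts, 9 fell and 3 rose on the brightest probe set. The phosphatase gene Cdc25c was at -3.02 and the kinase gene Akt1 at 0.81. Mastl was among the rises, but its other probe sets were called lower. Other probe sets were also called lower for Cdc25c, Ensa and Arpp19, the last not called on its brightest, and higher for Akt1. The rises of Gpr12, Gna12, Abcc4 and Akt1 were lost under both control scalings, and those of Gpr12, Abcc4 and Akt1 turned below 0 with poly-A controls made equal.

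**Figure D5:**
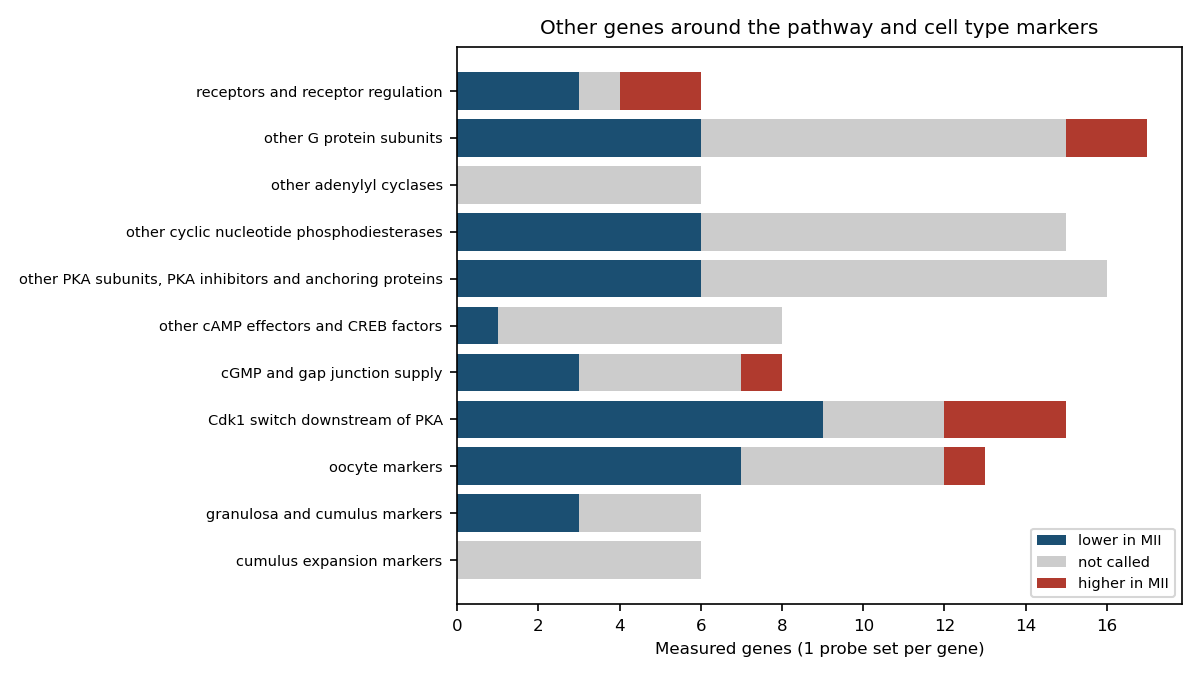
Number of measured genes in each pathway and marker list that were lower, not called or higher in MII oocytes as deposited (limma, 1 probe set per gene). Falls outnumber rises in every pathway list but that of other adenylyl cyclases, which includes Cap1 and in which no gene was called.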

How the data were processed

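Values for 21702 probe sets on 6 arrays were read as the authors deposited them, as log2 expression. Per the submitters' processing notes, the tools were RMA and the R package affy; their versions and settings, a filter on probe sets and the build were not given in the sources used here. The array of GV replicate 1 held 7077 distinct values, and those of the other arrays were not counted. Without the 56 controls, 21646 probe sets were tested with no intensity filter; 19078 had 1 gene symbol, 550 several and 2018 none. The brightest probe set over all arrays stood for a gene, and RefSeq GRCm38.p6 gave promoter sequences. Stages were compared with limma 3.58.1 under R 4.3.3, using lmFit and eBayes with the stage as sole term (2-sided, Benjamini-Hochberg over all tested probe sets); stability used 2 one-sided tests. The code was tested on simulated data. Alternatives were scalings, filters, moderation, a replicate block and leaving out each array. Named were all member probe sets and, per pathway list, the called gene with the largest rise and the steepest fall, or the brightest where none was called. Some other list genes were named beside these. The members and lists were chosen with earlier results of these data known. The number of arrays limits precision, and no measure of background was used.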

Additional observations from a re-analysis of the deposited data

How the results depend on the processing

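As deposited, 6 member probe sets and 2 member genes were higher and 4 and 2 lower. Equal array medians gave 16 probe sets and 7 genes higher and 1 gene lower; after quantile normalization 12 and 6 were higher and 2 and 1 lower, with hybridization controls made equal 0 and 0 were higher (limma), and with poly-A controls made equal 0 and 0 were higher and 15 and 7 lower. Without moderation 1 probe set and 0 genes were higher (6 and 3 at an unadjusted p under 0.05), and without the types _s_at, _x_at and _a_at 3 probe sets were higher and 2 lower. Leaving out 1 array gave 3 to 6 probe sets higher, 4 to 5 lower, 1 to 3 genes higher and 2 to 3 lower. Stable within 1.5-fold were 3 probe sets as deposited (limma, with 8 at an unadjusted p under 0.05). The number was also 3 after quantile normalization and 3 with an intensity trend in eBayes, and it was 2 with no moderation. It was 0 with array medians or either set of controls made equal, 0 among bright probe sets and 0 to 0 without 1 array. Within 2-fold, 16 were called stable. Pathway rises numbered 8 as deposited, 49 with equal array medians, 30 after quantile normalization, 0 with either set of controls made equal, where pathway falls were 34 (hybridization) and 79 (poly-A). Marker rises were 1, then 10, 3, 0 and 0 in the same order, and marker falls 24 with poly-A controls made equal.

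Signs turned as follows. With array medians made equal: Gpr3 0.15, Gnas 1453413_at 0.60, Adcy3 0.43, Adcy9 1449620_s_at 0.23 and 1434454_at 0.40, Prkacb 1420610_at 0.51, Prkar1a 1452032_at 0.12 and 1447635_at 0.31, Prkar2a 1452915_at 0.56. After quantile normalization, in the same order without Adcy3 and Prkar1a 1447635_at: 0.13, 0.20, 0.18, 0.25, 0.090, 0.082 and 0.40, and the gap between Prkar1a 1452032_at and 1447635_at changed by 0.12 in place of -0.20. With hybridization controls made equal: Pde3a 1450284_at -0.17, Prkacb 1420611_at -0.01 (-0.0098), Prkar2a 1427414_at -0.15, Prkar2b 1430640_a_at -0.26. With poly-A controls made equal: Adcy9 1418586_at -0.20, Pde3a 1450284_at -0.64 and 1431913_a_at -0.32, Prkaca 1447720_x_at -0.066 and 1450519_a_at -0.46, Prkacb 1420611_at -0.48, Prkar2a 1427414_at -0.62, Prkar2b 1430640_a_at -0.73, 1456475_s_at -0.039 and 1438664_at -0.38. Without 1 array, Gnas 1453413_at ranged from -0.056 to 0.025, Prkacb 1420610_at from -0.27 to 0.070, Prkar2a 1452915_at from -0.14 to 0.0088 and Prkar2b 1430640_a_at from -0.071 to 0.27. A constant shift of the arrays produced the median and control scalings by construction; the cause of the other changes was not tested.

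The replicate number was tried as a block although it does not pair the samples: same-numbered arrays had correlations of their deviations from the stage means of 0.091, 0.029 and 0.027, and no array correlated best with the one of its own number. The replicate block left 6 member probe sets higher and 4 lower and changed no member call; 2 were called stable.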
